A study of Mus musculus with 30 samples.

Results

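The 10 genes described here make and load MHC class I molecules in mouse liver: B2m, H2-K1, H2-D1, Tap1, Tap2, Tapbp, Psmb8, Psmb9, Psmb10 and Nlrc5. They were found by symbol among 18193 genes with a probe set annotated to a single gene, each read through the brightest such probe set over 30 arrays, and all 10 were present. RNA from livers of adult male mice on a C57BL/6J background was measured on Affymetrix arrays, with 3 arrays in each of 10 groups. Mice were dosed by oral gavage. They were given 1,4-dichlorobenzene (DCB, 600 mg/kg, 3 days), cyproterone acetate (CPA, 160 mg/kg) or corn oil (the vehicle, 0 mg/kg, 3 days). DCB is used in mothballs, and CPA is an antiandrogen with progestin activity. Each agent was given to hCAR/hPXR mice, which carry the human nuclear receptors CAR and PXR in place of the mouse ones, to CARko/PXRko mice, which lack both receptors, and to wild type mice; PXRko mice, which lack PXR, received corn oil alone. The CPA groups are labelled 6 days in hCAR/hPXR and wild type mice and 3 days in CARko/PXRko mice, whereas the written protocol gives 3 days for every mouse. CPA effects outside CARko/PXRko mice therefore set arrays labelled 6 days against controls labelled 3 days, and the agent and the labelled duration cannot be told apart there.

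MHC class I molecules display peptides from inside the cell to CD8 T cells. H2-K1 and H2-D1 encode the classical heavy chains and B2m the light chain that they share. Peptides are cut by the proteasome, carried into the endoplasmic reticulum by the transporter of Tap1 and Tap2, and placed on the heavy chain with the help of tapasin (Tapbp). Psmb8, Psmb9 and Psmb10 encode the catalytic subunits of the immunoproteasome, which are built into the particle instead of the constitutive subunits of Psmb5, Psmb6 and Psmb7 when cells see interferon-gamma. Nlrc5 encodes the transactivator of class I genes. In liver, hepatocytes carry class I at modest levels while Kupffer cells, endothelial cells and lymphocytes carry more. These are whole-tissue values, in which fewer cells of a type and less RNA per cell cannot be told apart.

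The promoter windows below show what these genes share in sequence; they come from RefSeq (build GRCm38.p6) and run from 250 bases before to 50 bases after the annotated start. Windows were found for 8 of the 10 genes; Tap2 and Nlrc5 had no entry. They were searched on both strands for 5 motifs, chosen with the sequences in view: the palindromic NF-kappaB site of the class I enhancer (in 0.107% of 32851 windows); GAANNGAAA, the core of the class I interferon element (7.52%); TGACGC, a cyclic AMP response element-like core (7.4%); the interferon response element core, a pair of GAAA blocks with 2 free bases between (3.44%); and TTCNNNGAA, a STAT site (8.3%). A match is a description of letters and not a measured site. Capitals mark the matches. The heavy-chain genes are shown first because they hold the same 3 motifs in the same order; in both, TGACGC begins 70 bases after the first base of the NF-kappaB site, and GAANNGAAA lies between them on the opposite strand. H2-K1 has 2 windows in the table, of which the first is shown (chr17:34000298-34000597, minus strand), and H2-D1 lies at chr17:35262844-35263143, plus strand.
H2-K1: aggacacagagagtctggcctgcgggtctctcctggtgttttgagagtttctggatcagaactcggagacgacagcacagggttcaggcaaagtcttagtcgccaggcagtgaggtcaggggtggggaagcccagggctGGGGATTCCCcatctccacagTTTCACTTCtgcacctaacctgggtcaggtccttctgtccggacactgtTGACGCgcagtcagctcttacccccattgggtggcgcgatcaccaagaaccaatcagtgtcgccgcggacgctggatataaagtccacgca
H2-D1: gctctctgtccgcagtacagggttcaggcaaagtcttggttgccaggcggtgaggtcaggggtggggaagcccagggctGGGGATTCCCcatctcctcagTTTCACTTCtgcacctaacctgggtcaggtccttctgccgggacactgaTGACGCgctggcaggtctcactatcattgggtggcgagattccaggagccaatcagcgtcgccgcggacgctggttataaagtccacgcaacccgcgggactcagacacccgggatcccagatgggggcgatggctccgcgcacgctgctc
Of all windows, 3 held the NF-kappaB site and TGACGC at that spacing, and they belonged to 2 genes, H2-K1 and H2-D1. Lined up at the NF-kappaB site without gaps, 176 of 240 bases (73.3%) were identical.

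B2m (chr2:122147437-122147736, plus strand) and Psmb8 (chr17:34197945-34198244, plus strand) are shown because each holds a motif of the interferon pathway. The B2m match is the interferon response element core, at -139 relative to the start, and the Psmb8 match is TTCNNNGAA, at -97.
B2m: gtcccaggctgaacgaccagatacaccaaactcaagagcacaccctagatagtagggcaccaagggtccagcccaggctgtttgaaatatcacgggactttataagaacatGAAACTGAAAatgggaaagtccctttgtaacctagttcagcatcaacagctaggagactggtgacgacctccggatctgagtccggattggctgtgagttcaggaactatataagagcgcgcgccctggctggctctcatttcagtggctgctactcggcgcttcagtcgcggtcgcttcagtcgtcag
Psmb8: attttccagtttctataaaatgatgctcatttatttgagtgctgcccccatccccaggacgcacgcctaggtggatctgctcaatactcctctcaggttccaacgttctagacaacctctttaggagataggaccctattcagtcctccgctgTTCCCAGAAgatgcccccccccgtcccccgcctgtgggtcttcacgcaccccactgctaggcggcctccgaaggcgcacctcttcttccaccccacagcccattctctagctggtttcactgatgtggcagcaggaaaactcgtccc
Tap1 (chr17:34187306-34187605, plus strand) and Psmb9 (chr17:34187281-34187580, minus strand) are neighbours read in opposite directions, with 225 bases between their start sites, so their windows are 1 shared stretch over 275 bases. The Tap1 window is shown for both. None of the 5 motifs was in the windows of Tap1, Psmb9, Tapbp or Psmb10, which says only that these letters are not there.
Tap1: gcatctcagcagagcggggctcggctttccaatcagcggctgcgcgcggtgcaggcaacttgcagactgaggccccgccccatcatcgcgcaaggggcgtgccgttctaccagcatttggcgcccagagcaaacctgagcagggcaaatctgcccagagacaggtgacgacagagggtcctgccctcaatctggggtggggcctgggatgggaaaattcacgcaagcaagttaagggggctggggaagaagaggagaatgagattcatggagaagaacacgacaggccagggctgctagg

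All 10 genes exceeded their array's median on all 30 arrays. All 10 hepatocyte markers did so too, with values between 10.93 and 15.30 (RMA log2 units). Nr1i3 (mouse CAR) lay between 6.05 and 6.86 on the 18 arrays of hCAR/hPXR and CARko/PXRko mice, against 9.32 to 10.60 on the 12 arrays of PXRko and wild type mice. Nr1i2 (mouse PXR) lay between 4.25 and 4.97 on the 21 arrays of the 3 altered genotypes, against 6.75 to 8.06 on the 9 wild type arrays. Replicate 2 of corn oil CARko/PXRko and replicates 2 and 3 of DCB CARko/PXRko held skeletal muscle transcripts, as did replicate 3 of corn oil PXRko. The median of the muscle list stood 6.88, 2.02, 6.46 and 1.54 above wild type corn oil on these 4 arrays. Markers of other tissues stood out on some of the same arrays: the brown fat list by 8.18 on DCB CARko/PXRko replicate 3 and by 3.10 on corn oil CARko/PXRko replicate 2, the adrenal cortex list by 6.62 on DCB CARko/PXRko replicate 3, and the squamous epithelium list by 3.17 on DCB CARko/PXRko replicate 2. Leaving out the 4 arrays left 1 array of DCB CARko/PXRko, which was then assumed to vary like the other groups. The design text gives 5 mice per group, whereas each group has 3 arrays. The labels do not say that each array is a separate mouse, so p-values measure the spread between these arrays.

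The question of the treatment comparisons was how each agent changed these genes within a genotype. CPA lowered immunoproteasome genes in hCAR/hPXR mice and tapasin in CARko/PXRko mice, DCB lowered B2m and H2-K1 in hCAR/hPXR mice, and every call among the 10 genes in these 6 comparisons was a decrease. A gene was called at a Benjamini-Hochberg adjusted p under 0.05 in limma over 12795 genes, and all differences below are log2 differences between group means ± SE. DCB called 2 of the 10 lower in hCAR/hPXR livers (4.35% of all genes were called lower), 0 in CARko/PXRko livers (0.117% called in either direction) and 0 in wild type mice (0.735%). CPA called 2 lower in hCAR/hPXR livers (2.9% of all genes), 1 lower in CARko/PXRko livers (3.31%) and 0 in wild type mice (1.12% in either direction). For the comparisons with 0 calls, an unadjusted p under 0.05 was reached by 1 gene for DCB in CARko/PXRko mice, 2 for DCB in wild type mice and 3 for CPA in wild type mice. The median difference of the 10 genes was -0.44, -0.25 and -0.19 for DCB in hCAR/hPXR, CARko/PXRko and wild type mice, and -0.54, -0.63 and -0.31 for CPA in the same order, beside medians of all genes between -0.02 and 0.01. All 3 treated arrays lay below all 3 corn oil arrays for 6 of the 10 genes under DCB in hCAR/hPXR livers (13.8% of all genes), 2 in CARko/PXRko livers (5.6%) and 4 in wild type mice (11.5%). Under CPA the same held for 6 of the 10 in each genotype, beside 13% of all genes in hCAR/hPXR livers, 12.8% in CARko/PXRko livers and 14.4% in wild type livers. In wild type mice, CPA called 3 of the 10 (H2-D1, Psmb8, Psmb10) with array weights, a fit that called 14.1% of all genes in either direction, and 4 (Tap1, Psmb8, Psmb9, Psmb10) when the fit held those groups alone, which called 6.05%. In the same mice, DCB called 2 (B2m, H2-K1) with array weights (7.57% of all genes).

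**Figure D1:**
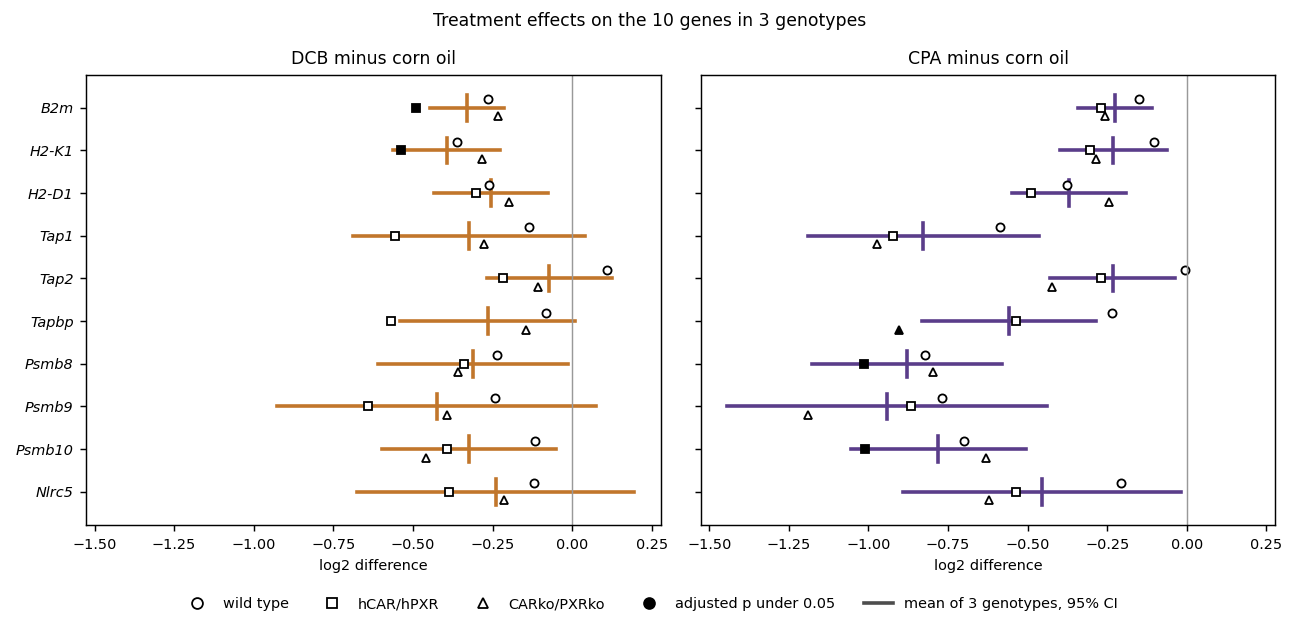
Log2 difference from corn oil for the 10 genes under DCB (left) and CPA (right). Markers are single genotypes with 3 arrays per group (filled where the adjusted p is under 0.05), and bars are the mean of the 3 genotypes with its 95% confidence interval; every mean lies below 0, the lowest at -0.94 for Psmb9 under CPA.

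Since no difference between genotypes in these effects was called (below), the effect averaged over the 3 genotypes was fitted as well. This comparison was chosen after the single-genotype values had been seen. Averaged in this way, CPA lowered 7 of the 10 genes (8.64% of all genes were called lower): B2m, H2-D1, Tap1, Tapbp, Psmb8, Psmb9 and Psmb10. DCB lowered 2 (6.89%): B2m and H2-K1. On all 9 CPA arrays B2m, Tap1 and Psmb10 lay below all 9 corn oil arrays of the same genotypes (1.66% of all genes), and under DCB B2m alone of the 10 did so (0.305%). The median difference of the 10 genes was -0.51 for CPA and -0.32 for DCB, against -0.01 over all genes for each. Both agents were set against the same corn oil arrays, so their values are given side by side and not as independent results.

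Averaged over genotypes, all 3 immunoproteasome genes were called lower under CPA. Psmb8, which encodes the chymotrypsin-like subunit beta5i, had 8.53, 8.40 and 8.90 in CPA hCAR/hPXR livers, against 9.58, 9.61 and 9.69 in corn oil hCAR/hPXR livers. Psmb10, the trypsin-like subunit beta2i, had 8.825, 9.001 and 8.842 in CPA hCAR/hPXR livers, against 9.98, 9.69 and 10.03 in corn oil hCAR/hPXR livers. The groups did not overlap for either gene. In limma, Psmb8 fell by 1.01 ± 0.25 (adjusted p = 0.0187) and Psmb10 fell by 1.01 ± 0.23 (adjusted p = 0.0105). Psmb10 was no longer called without corn oil replicate 1 (adjusted p = 0.0531) or without CPA replicate 1 (0.0519). Psmb8 was no longer called without any of corn oil replicates 1, 2 and 3 and CPA replicates 1 and 2, at adjusted p between 0.0567 and 0.0813.

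In the other genotypes the same genes had lower CPA values that did not pass the test. Psmb8 had 8.64, 8.69 and 7.82 in CPA CARko/PXRko livers, against 9.52, 9.22 and 8.81 in corn oil CARko/PXRko livers (difference -0.80 ± 0.25, adjusted p = 0.0629 in limma). Psmb8 had 8.64, 8.33 and 8.76 in CPA wild type livers, against 9.38, 9.45 and 9.36 in corn oil wild type livers (-0.82 ± 0.25, adjusted p = 0.124). In both genotypes every CPA array was below every corn oil array. Psmb10 had 9.38, 9.30 and 8.73 in CPA CARko/PXRko livers, against 10.06, 9.79 and 9.46 in corn oil CARko/PXRko livers, and 9.04, 9.11 and 9.11 in CPA wild type livers, against 9.77, 9.82 and 9.76 in corn oil wild type livers. These groups did not overlap either. Over the 3 genotypes, Psmb8 fell by 0.88 ± 0.14 (adjusted p = 0.000153), so that its signal fell by 45.6%, and Psmb10 fell by 0.78 ± 0.13 (adjusted p = 0.000219). Under DCB the averaged differences were -0.31 ± 0.14 for Psmb8 (adjusted p = 0.165) and -0.32 ± 0.13 for Psmb10 (0.112).

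Psmb9, which encodes the subunit beta1i, was the most variable of the 10 from array to array, with a pooled SD within groups of 0.55. It had 7.32, 8.49 and 6.69 in CPA CARko/PXRko livers, against 9.02, 8.86 and 8.19 in corn oil CARko/PXRko livers. It had 8.51, 7.17 and 8.99 in CPA hCAR/hPXR livers, against 9.32, 9.05 and 8.90 in corn oil hCAR/hPXR livers. A CPA array in each of these genotypes lay within the corn oil range. In wild type mice it had 8.30, 7.99 and 8.38 under CPA, against 9.07, 9.13 and 8.78 under corn oil, with no overlap. The averaged CPA effect was called, and Psmb9 fell by 0.94 ± 0.24 (adjusted p = 0.00964 in limma); no single genotype was called, at adjusted p of 0.101, 0.315 and 0.581 in CARko/PXRko, hCAR/hPXR and wild type mice. Without CPA replicate 2, the effect in CARko/PXRko mice was called (-1.69, adjusted p = 0.0248). The averaged DCB difference was -0.43 ± 0.24 (adjusted p = 0.276).

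**Figure D2:**
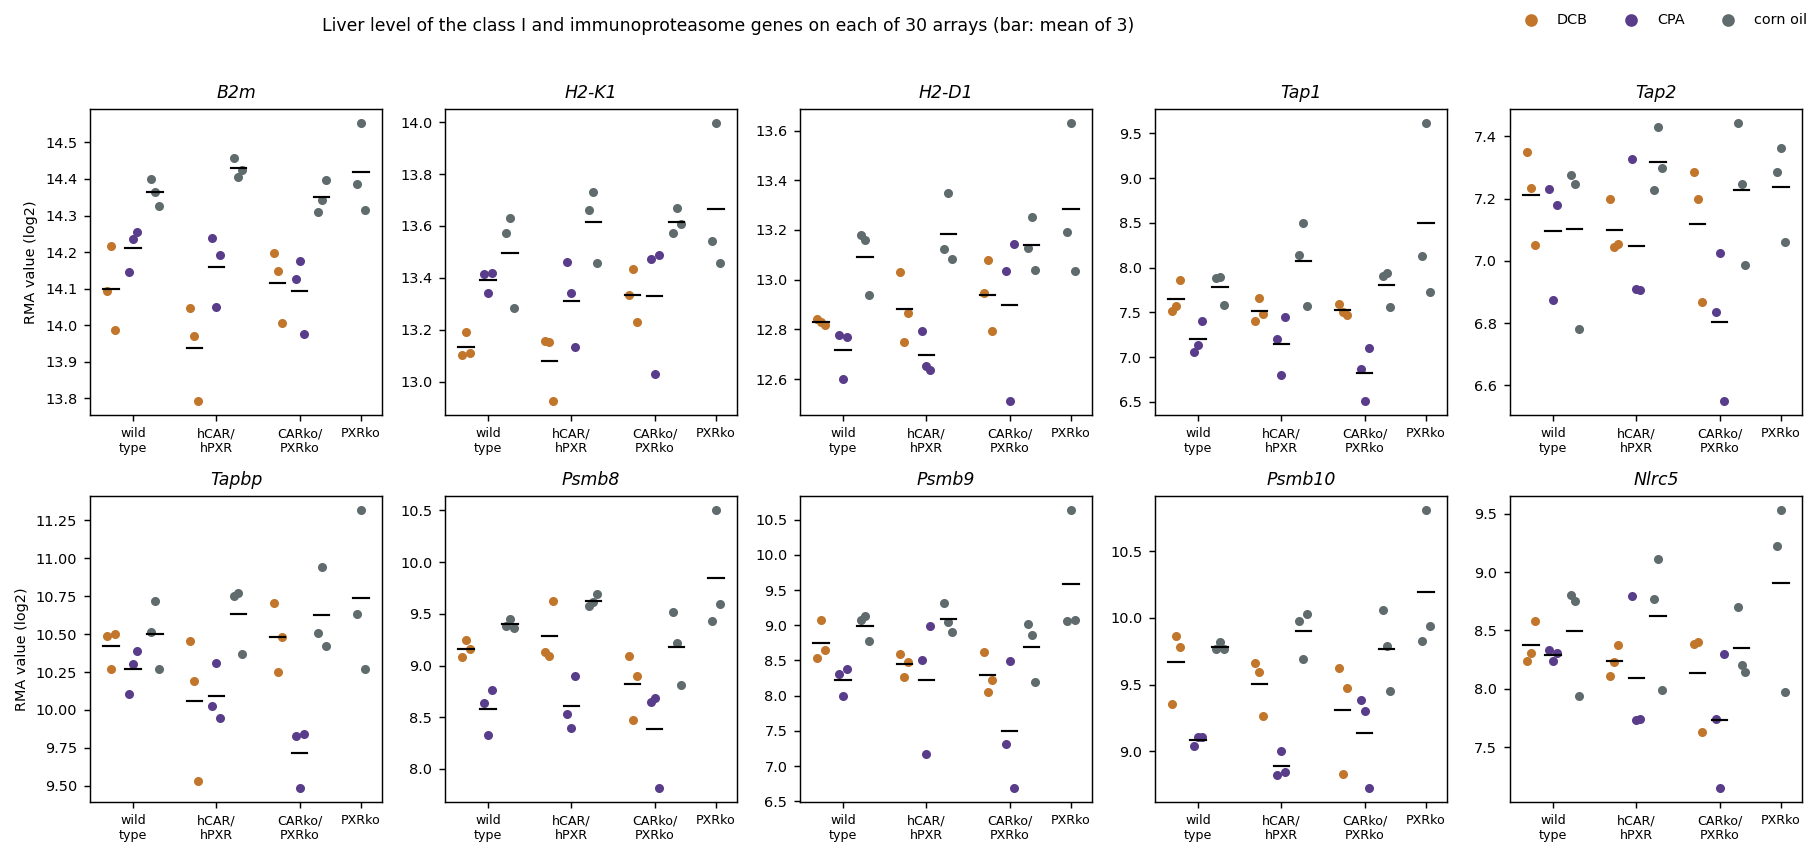
RMA value (log2) of each of the 10 genes on each of the 30 arrays, by genotype and treatment, with the mean of 3 arrays as a bar. In each genotype the mean of Psmb8 and of Psmb10 is lowest under CPA, and a single corn oil PXRko array is highest of its group for every gene (Psmb9 at 10.64).

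Of the genes that carry and load peptides, the averaged CPA effect called Tap1 and Tapbp lower and did not call Tap2. Tap1, a chain of the peptide transporter, lay between 6.51 and 7.44 (median 7.10) on the 9 CPA arrays, against 7.56 to 8.50 (median 7.90) on the 9 corn oil arrays, with no overlap. Averaged over genotypes, Tap1 fell by 0.83 ± 0.18 under CPA (adjusted p = 0.00199 in limma). Its single-genotype differences were -0.97 ± 0.30, -0.92 ± 0.30 and -0.59 ± 0.30 in CARko/PXRko, hCAR/hPXR and wild type mice, at adjusted p of 0.0622, 0.0931 and 0.537. In CARko/PXRko mice it was called without CPA replicate 3 (adjusted p = 0.05). Under DCB, Tap1 lay between 7.41 and 7.86 (median 7.52), with an averaged difference of -0.32 ± 0.18 (adjusted p = 0.252). Tap2, the partner chain, lay between 6.55 and 7.33 on CPA arrays, against 6.78 to 7.44 on corn oil arrays, which overlap over most of their range. Its averaged differences were -0.23 ± 0.09 for CPA (adjusted p = 0.109, and 0.0426 without corn oil wild type replicate 3) and -0.07 ± 0.09 for DCB (0.687).

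Tapbp, the tapasin gene, had 9.83, 9.49 and 9.84 in CPA CARko/PXRko livers, against 10.51, 10.94 and 10.42 in corn oil CARko/PXRko livers, so the groups were apart. It fell by 0.91 ± 0.23 there (adjusted p = 0.0226 in limma). That call was lost without corn oil replicate 1 (adjusted p = 0.0538), corn oil replicate 2 (0.107; this array holds muscle transcripts) or CPA replicate 2 (0.0908), and its second probe set differed by only -0.14. In CPA hCAR/hPXR livers Tapbp had 10.02, 10.31 and 9.95, against 10.75, 10.77 and 10.37 in corn oil hCAR/hPXR livers (-0.54 ± 0.23, adjusted p = 0.235). In CPA wild type livers it had 10.11, 10.31 and 10.39, against 10.51, 10.72 and 10.27 in corn oil wild type livers (-0.23 ± 0.23, adjusted p = 0.868), and these groups overlapped. The averaged CPA effect was called, and Tapbp fell by 0.56 ± 0.13 (adjusted p = 0.00518). The averaged DCB difference was -0.27 ± 0.13 (0.205).

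DCB lowered B2m and H2-K1 in hCAR/hPXR mice. B2m had 14.05, 13.97 and 13.79 in DCB hCAR/hPXR livers, against 14.46, 14.41 and 14.42 in corn oil hCAR/hPXR livers. H2-K1 had 13.16, 13.15 and 12.93 in DCB hCAR/hPXR livers, against 13.66, 13.73 and 13.46 in corn oil hCAR/hPXR livers. Neither gene's groups overlapped. In limma, B2m fell by 0.49 ± 0.10 (adjusted p = 0.00332) so that its signal fell by 28.8%, and H2-K1 fell by 0.54 ± 0.14 (adjusted p = 0.0209). H2-K1 was not called without corn oil replicate 1 (adjusted p = 0.0713), corn oil replicate 2 (0.108) or DCB replicate 3 (0.0874), and neither gene was called when the fit held those groups alone (0.149 for B2m, 0.146 for H2-K1). H2-D1 had 13.03, 12.75 and 12.87 in DCB hCAR/hPXR livers, against 13.12, 13.35 and 13.08 in corn oil hCAR/hPXR livers. These groups did not overlap, but the difference of -0.30 ± 0.15 was not called (adjusted p = 0.231, and 0.0123 with array weights).

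Averaged over genotypes, B2m lay between 13.79 and 14.22 (median 14.05) on the 9 DCB arrays and between 13.98 and 14.26 (median 14.17) on the 9 CPA arrays, against 14.31 to 14.46 (median 14.40) on the 9 corn oil arrays. Both treated sets lay wholly below corn oil. B2m fell by 0.33 ± 0.06 under DCB (adjusted p = 0.000328 in limma) and fell by 0.23 ± 0.06 under CPA (adjusted p = 0.00696). H2-K1 fell by 0.39 ± 0.08 under DCB (adjusted p = 0.00209), and its CPA difference was -0.23 ± 0.08 (0.0601). H2-D1 fell by 0.37 ± 0.09 under CPA (adjusted p = 0.00469), and its DCB difference was -0.25 ± 0.09 (0.0525). The averaged H2-K1 effect of CPA was called when corn oil replicate 3 of hCAR/hPXR or wild type mice, CPA replicate 1 or 3 of CARko/PXRko mice or CPA replicate 1 of hCAR/hPXR mice was left out (adjusted p between 0.0333 and 0.05). The averaged H2-D1 effect of DCB was called without corn oil wild type replicate 3 (adjusted p = 0.0436), DCB CARko/PXRko replicate 2 (0.0465; this array holds muscle transcripts) or DCB hCAR/hPXR replicate 1 (0.0409). H2-D1 lay between 12.51 and 13.14 on the CPA arrays and between 12.75 and 13.08 on the DCB arrays, against 12.94 to 13.35 on the corn oil arrays, so each treated set overlapped corn oil. The heavy-chain genes have close relatives, and the probe sets used for both are of a type that can bind transcripts of related genes, so their values are uncertain as to the gene. Over all 4 probe sets of H2-K1 the averaged DCB difference ran from -0.63 to -0.25, with 3 called lower. Their averaged CPA difference ran from -0.42 to -0.23, with 2 called lower. Over the 8 probe sets of H2-D1 that passed the filter the averaged CPA difference ran from -0.52 to -0.23, with 5 called lower. Their averaged DCB difference ran from -0.38 to -0.16, with 3 called lower. Whether either gene was called under an agent thus depended on the probe set.

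Nlrc5 was not called under either agent. It lay between 7.15 and 8.79 (median 8.24) on the CPA arrays and between 7.63 and 8.58 (median 8.31) on the DCB arrays, against 7.94 to 9.11 (median 8.70) on the corn oil arrays. The ranges overlapped. Its averaged differences were -0.45 ± 0.21 for CPA (95% confidence interval -0.89 to -0.02, adjusted p = 0.168 in limma) and -0.24 ± 0.21 for DCB (-0.68 to 0.20, adjusted p = 0.516).

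The agents were also set against each other, again after their values had been seen. Their doses differ, as do the labelled durations in hCAR/hPXR and wild type mice. Within single genotypes, CPA minus DCB called 0 of the 10 genes in hCAR/hPXR mice (9.31% of all genes in either direction; 3 at an unadjusted p under 0.05 in limma), 0 in wild type mice (2.01%; 2 at an unadjusted p under 0.05) and 1 in CARko/PXRko mice (4.32% lower), Tapbp at -0.76 ± 0.23 (adjusted p = 0.0443). The Tapbp call was lost without CPA replicate 1 or 2 or DCB replicate 1 or 3 (adjusted p between 0.0791 and 0.151). The second Tapbp probe set differed by only -0.02 in these mice. Averaged over genotypes, 3 of the 10 were lower under CPA than under DCB (10.4% of all genes): Psmb8 (-0.57 ± 0.14, adjusted p = 0.00754), Psmb10 (-0.46 ± 0.13, 0.0175) and Tap1 (-0.50 ± 0.18, 0.047). The Tap1 call was lost when any of 16 of the 18 arrays was left out (adjusted p between 0.0504 and 0.0973), and it held without CPA hCAR/hPXR replicate 3 or CPA CARko/PXRko replicate 3. Psmb9 was called without CPA CARko/PXRko replicate 2 (adjusted p = 0.0378) and Tapbp without DCB hCAR/hPXR replicate 3 (0.0308). B2m (0.10 ± 0.06, adjusted p = 0.216) and H2-K1 (0.16 ± 0.08, 0.18) had positive differences that did not pass.

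The immunoproteasome subunits were also set against the constitutive subunits whose place they take. Psmb5, the constitutive counterpart of Psmb8, had 12.54, 12.73 and 12.79 in DCB hCAR/hPXR livers, against 11.50, 11.56 and 11.85 in corn oil hCAR/hPXR livers. Psmb5 rose by 1.05 ± 0.12 in hCAR/hPXR mice (adjusted p = 1.81e-05 in limma), by 0.68 ± 0.12 in CARko/PXRko mice (0.0152) and by 0.86 ± 0.12 in wild type mice (0.000515). Every DCB array was above every corn oil array in each genotype. Psmb6 and Psmb7, the counterparts of Psmb9 and Psmb10, rose by 0.84 ± 0.16 (adjusted p = 0.00237) and 0.90 ± 0.20 (0.00785) in hCAR/hPXR mice. Averaged over genotypes DCB raised all 3, Psmb5 by 0.86 ± 0.07, Psmb6 by 0.64 ± 0.09 and Psmb7 by 0.65 ± 0.12, while CPA raised Psmb5 by 0.30 ± 0.07 (adjusted p = 0.00522) and Psmb7 by 0.34 ± 0.12 (0.0482), with Psmb6 at 0.19 ± 0.09 (0.195). When the 4 arrays that held muscle transcripts were left out, the averaged CPA effect called 1 of these 3 higher and DCB called 0 of them in CARko/PXRko mice.

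The gap within each pair was tested directly on the difference of the log2 values of both genes on the same array, which compares changes and not the levels of different probe sets. The test was an exact two-sided permutation of treatment labels within genotypes (8000 relabellings, 9 arrays against 9), with p adjusted over 6 tests. It was chosen because of the fitted values above, so it gives the size of the gaps and is no independent support for them. Under DCB the gap changed by -1.18 for Psmb8 minus Psmb5, by -1.06 for Psmb9 minus Psmb6 and by -0.97 for Psmb10 minus Psmb7. Under CPA the same gaps changed by -1.18, -1.13 and -1.12. All 6 exact permutation p values were 0.00025 after adjustment, the smallest these relabellings can give, and each gap fell in all 3 genotypes. All 9 treated arrays lay below all 9 corn oil arrays for Psmb8 minus Psmb5 and for Psmb10 minus Psmb7 under both agents, and the arrays overlapped for Psmb9 minus Psmb6. Averaged over genotypes, limma called all 3 constitutive genes higher under DCB and none of the immunoproteasome genes. Under CPA it called all 3 immunoproteasome genes lower, and Psmb5 and Psmb7 but not Psmb6 higher. The array counts that follow describe each gene and do not test its part in the gap. Under DCB the constitutive gene was above its corn oil mean on 9 of 9 arrays in all 3 pairs. The immunoproteasome gene was below its corn oil mean on 8 of 9 DCB arrays in each pair. Under CPA the immunoproteasome gene was below its corn oil mean on 9 of 9 arrays in all 3 pairs. The constitutive gene was above its corn oil mean on 8 of 9 CPA arrays in each pair.

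**Figure D3:**
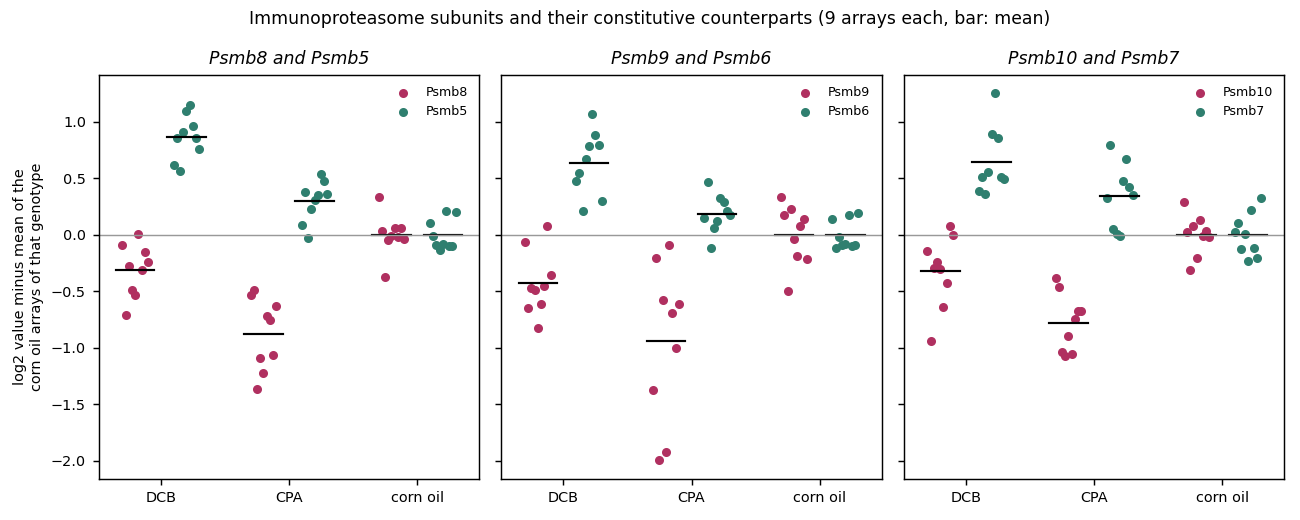
Log2 value minus the mean of the corn oil arrays of the same genotype, for each immunoproteasome subunit and its constitutive counterpart on the 9 DCB, 9 CPA and 9 corn oil arrays (bars are means). Psmb5 averages 0.86 and Psmb8 -0.31 under DCB, and Psmb5 averages 0.30 and Psmb8 -0.88 under CPA.

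Other proteasome genes rose with the constitutive subunits under DCB. Of 11 further subunits of the 20S core, the particle's barrel, 7 rose in hCAR/hPXR livers (3.29% of all genes were called higher), 0 in CARko/PXRko livers (0.117%; 3 at an unadjusted p under 0.05 in limma) and 4 in wild type mice (0.61%). None was called lower, and the averaged effect called 10 higher (6.54% of all genes; Psmb4 0.73 ± 0.07, adjusted p = 1.5e-07). Under CPA the averaged effect called 1 of the 11 higher (5.35% of all genes), Psma7, at 0.35 ± 0.09 (adjusted p = 0.0138). The interferon-inducible activator subunit Psme1 went opposite ways in the averaged effects. Psme1 rose by 0.27 ± 0.08 under DCB (adjusted p = 0.0254) and fell by 0.40 ± 0.08 under CPA (adjusted p = 0.00106), averaged over genotypes. The DCB rise was called in hCAR/hPXR mice alone (0.46 ± 0.14, adjusted p = 0.042 in limma). It was 0.17 in CARko/PXRko mice (0.824) and 0.18 in wild type mice (0.756). The CPA fall was called in CARko/PXRko mice alone (-0.51 ± 0.14, 0.029). It was -0.40 in hCAR/hPXR mice (0.112) and -0.29 in wild type mice (0.469). Averaged over genotypes, Psme3, the nuclear activator, rose under DCB (0.62 ± 0.09, adjusted p = 7.21e-05) and under CPA (0.29 ± 0.09, 0.0329). Without the arrays holding muscle transcripts the averaged DCB effect called 1 of these 2 activator genes. Of 13 other genes of class I loading and peptide trimming, the averaged CPA effect called 2 lower (8.64% of all genes; 1 without the arrays holding muscle transcripts), the peptidase gene Tpp2 (-0.25 ± 0.08, adjusted p = 0.0321) and the translocon gene Sec61a1 (-0.30 ± 0.09, 0.0309), and the averaged DCB effect called 0 (6.89% of all genes lower and 6.54% higher; 2 of the 13 at an unadjusted p under 0.05).

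Other class I heavy chains did not move as 1 group. Of 11 tested, the averaged CPA effect called 4 lower (8.64% of all genes) and 0 higher (5.35%), while the averaged DCB effect called 3 lower (6.89%) and 3 higher (6.54%). H2-Q2, a nonclassical class I gene, rose by 1.72 ± 0.37 in DCB hCAR/hPXR livers (adjusted p = 0.00676 in limma); averaged over genotypes it rose by 1.14 ± 0.22 under DCB (adjusted p = 0.000909) and fell by 0.72 ± 0.22 under CPA (0.0263). Hfe, which encodes a class I-like regulator of iron uptake, rose by 0.46 ± 0.10 under DCB (adjusted p = 0.00238).

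Genes that act upstream of class I or share its interferon control were counted in the averaged effects, in which 8.64% of all genes were called lower under CPA and 6.89% under DCB. Of 19 regulators of class I transcription, CPA called 5 lower and 0 higher, among them Irf1 (-0.60 ± 0.10, adjusted p = 0.00014 in limma), Irf9 (-1.05 ± 0.12, 1.3e-06) and Irf7 (-1.08 ± 0.14, 6.24e-06), transcription factors of the interferon pathways, and Nfyb (-0.86 ± 0.10, 1.33e-06), a subunit of the factor that binds class I and class II promoters. Of 15 listed interferon-gamma inducible GTPases and chemokines 11 could be tested, and these 11 were called lower under CPA, among them Gbp6 (-2.65 ± 0.32, adjusted p = 2.42e-06) and the chemokine gene Cxcl9 (-2.27 ± 0.37, 0.000131). Under DCB, 5 of the 11 were called lower (Gbp6 -1.45 ± 0.32, adjusted p = 0.0032), and 1 when the 4 arrays that held muscle transcripts were left out. Of 10 interferon receptor and signal genes, CPA called 4 lower, including Ifngr1 (-0.43 ± 0.11, adjusted p = 0.00745), a chain of the interferon-gamma receptor, and DCB called 2 lower. MHC class II genes, which present outside peptides on macrophages, dendritic cells and B cells, were lower as well: 6 of 9 listed were tested, and 5 of these 6 were called lower under CPA (H2-Aa -3.93 ± 0.27, adjusted p = 6.79e-10) and 2 of 6 under DCB (H2-Aa -1.02 ± 0.27, 0.014).

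Markers of immune and other liver cells were counted in the same averaged effects. All 11 Kupffer cell and macrophage markers passed the filter, and the averaged effect called 9 lower under CPA (8.64% of all genes; Csf1r -1.23 ± 0.16, adjusted p = 5.3e-06 in limma) and 8 lower under DCB (6.89% of all genes; Clec4f -0.82 ± 0.12, 8.89e-05). The log2 of their summed signal lay between 11.87 and 13.02 in CPA hCAR/hPXR livers, between 12.30 and 13.16 in CPA CARko/PXRko livers and between 12.42 and 12.61 in CPA wild type livers. Under DCB it lay between 12.52 and 12.93, between 12.59 and 12.94 and between 12.74 and 13.28 in the same order of genotypes. Under corn oil it lay between 13.59 and 13.81 in hCAR/hPXR, between 13.03 and 13.30 in CARko/PXRko and between 13.21 and 13.50 in wild type livers. Ptprc, the common leukocyte antigen, fell by 1.97 ± 0.17 under CPA (adjusted p = 1.84e-08) and fell by 0.69 ± 0.17 under DCB (0.00703); of the other 6 T and NK cell markers that passed the filter, CPA called 2 lower and DCB 0 (0 at an unadjusted p under 0.05). The summed signal of the 12 T and NK cell markers with a probe set lay between 9.09 and 9.46 on the 9 CPA arrays and between 9.39 and 10.05 on the 9 DCB arrays, against 9.66 to 10.23 on the 9 corn oil arrays. Of 9 B cell and dendritic cell markers 5 were tested; CPA called 3 lower, including Cd79b (-0.86 ± 0.11, adjusted p = 4.91e-06), a chain of the B cell receptor complex, and DCB called 1, Cd79b (2 without the arrays holding muscle transcripts). The log2 of the summed signal of the 7 of these markers with a probe set lay between 7.63 and 8.17 on the 9 CPA arrays and between 7.93 and 8.58 on the 9 DCB arrays, against 8.25 to 8.49 on the 9 corn oil arrays. Of 6 stellate cell markers, CPA called 3 lower and DCB 2, with Lrat, which esterifies retinol for storage, at -1.05 ± 0.20 under each. Their summed signal lay between 12.25 and 12.65 under CPA and between 12.31 and 13.57 under DCB, against 12.54 to 13.62 under corn oil. Of 7 sinusoidal endothelial markers, CPA called 2 lower and 1 higher, Lyve1 at 2.47 ± 0.37 (adjusted p = 3.93e-05), and DCB called 0 (0 at an unadjusted p under 0.05). The endothelial sum lay between 11.48 and 12.09 under CPA and between 11.41 and 12.08 under DCB, against 11.27 to 12.28 under corn oil. The part of these cells in the class I and immunoproteasome differences was not tested.

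**Figure D4:**
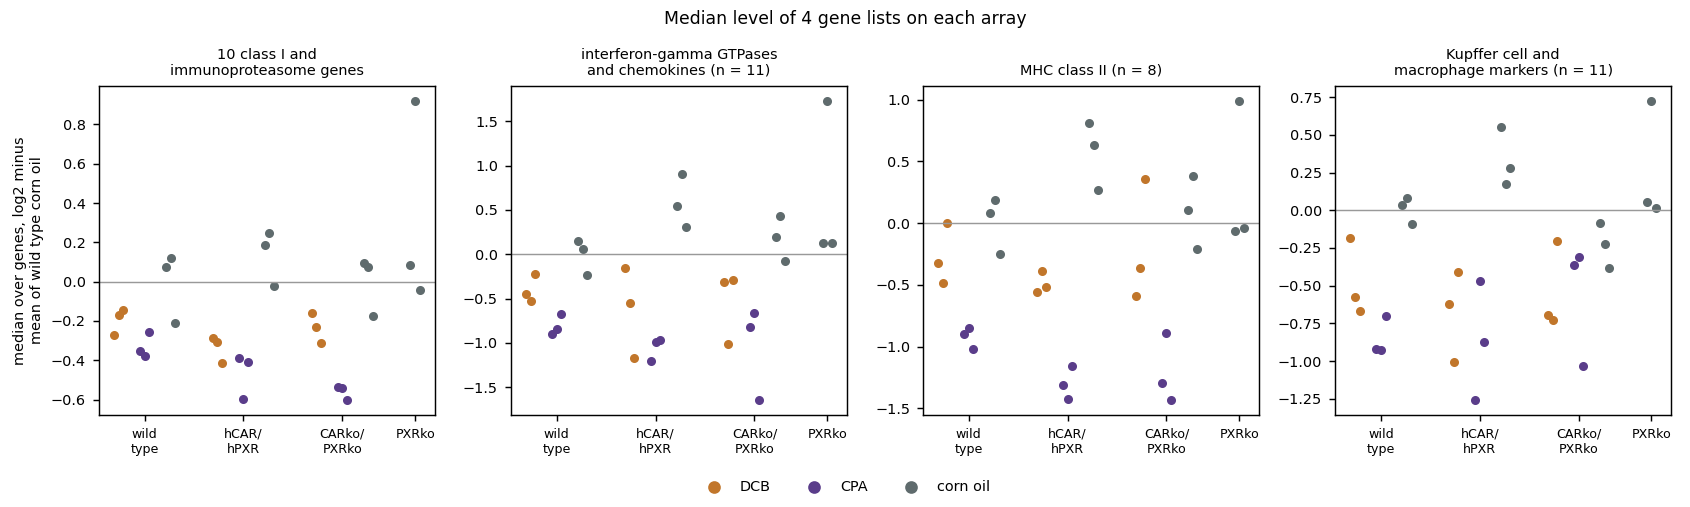
Median over the genes of a list on each array, in log2 units relative to the mean of wild type corn oil, for the 10 genes, 11 interferon-gamma inducible genes, 8 MHC class II genes (6 of which passed the filter) and 11 Kupffer cell and macrophage markers. For the 10 genes the CPA arrays lie between -0.60 and -0.26, and corn oil PXRko replicate 2 stands highest in all 4 panels (0.92, 1.73, 0.99 and 0.73).

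Without treatment, the genotypes were compared to see whether the receptors alter these genes at rest. None of the 10 was called in any of the 4 corn oil comparisons (limma), where the share of all genes called was 0.0234% for hCAR/hPXR minus wild type mice, 0.0391% for CARko/PXRko minus wild type mice, 0.0234% for PXRko minus wild type mice and 0.0156% for CARko/PXRko minus PXRko mice. At an unadjusted p under 0.05 the counts were 0, 0, 1 and 3. Replicate 2 of corn oil PXRko stood apart: it was the highest of its group for 10 of 10 genes. On it Tap1 was 9.62, against 8.13 and 7.73 on the other PXRko arrays, and Psmb8 was 10.50, against 9.43 and 9.59. The medians of the interferon-gamma inducible genes and of the Kupffer cell markers stood 1.73 and 0.73 above wild type corn oil on that array.

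Differences between genotypes in the treatment effects were tested as interactions. None of the 10 genes was called for DCB or CPA, in hCAR/hPXR or CARko/PXRko mice against wild type (limma; 0 reached an unadjusted p under 0.05 in any of the 4). Of all genes, 0% were called for DCB in both, 0.0625% for CPA in hCAR/hPXR mice and 0.0703% for CPA in CARko/PXRko mice. Through the probe sets used, the largest interaction in absolute size was Tapbp under CPA in CARko/PXRko mice, at -0.67 ± 0.33 (adjusted p = 0.655). Genotype and labelled duration differ together there. The second Tapbp probe set had 0.09 for the same interaction, and 1 of the 8 H2-D1 probe sets reached 0.77. These values do not show that the effects were equal: SEs of the interactions ran up to 0.60, for Psmb9.

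Across the 10 group means, every pair of the 10 genes correlated positively, with r between 0.42 and 0.98 (45 pairs, median 0.77). Over the 30 deviations of arrays from their group means, r ran from -0.01 to 0.87 with a median of 0.38. Corn oil PXRko replicate 2 enters both sets of correlations. It was the highest of its group for all 10 genes, with a median deviation of 0.60, and r without it was not computed. The neighbours Tap1 and Psmb9, whose promoter windows overlap, had r = 0.97 over group means and 0.50 over deviations, and H2-K1 and H2-D1 had 0.76 and 0.87; the part of related probe sequences in these values was not tested. Ordered by group mean, CPA CARko/PXRko livers were lowest for Tap1, Tap2, Tapbp, Psmb8, Psmb9 and Nlrc5, CPA hCAR/hPXR livers for H2-D1 and Psmb10, and DCB hCAR/hPXR livers for B2m and H2-K1. For each of the 10 genes the highest of the 10 groups was a corn oil group. This was hCAR/hPXR for B2m and Tap2 and PXRko for all the others. PXRko mice had no treated group, and replicate 2 raised the PXRko means. Most neighbours in these orders were closer than the pooled SD within groups; at most 2 of the 9 gaps exceeded it for any gene.

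Likeness to the mean scaled level of the 10 was ranked over 10 group means, among the 12795 tested genes without the 10 themselves. The genes most like it were Gbp8 (r = 0.98), Amacr (0.98), Gbp6 (0.98), Cxcl9 (0.97) and Itgal (0.97). Gbp8 and Gbp6 encode interferon-inducible guanylate-binding proteins, Cxcl9 a T cell chemokine, Itgal a leukocyte integrin chain and Amacr a racemase of branched-chain fatty acid and bile acid metabolism. Over the 30 deviations within groups, r was 0.73 for Gbp8, 0.60 for Gbp6, 0.60 for Itgal, 0.26 for Cxcl9 and -0.04 for Amacr. The points share groups and normalization and include corn oil PXRko replicate 2, and these values are descriptions.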

How the data were processed

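Livers of 30 mouse samples in 10 labelled groups of 3 were measured on Affymetrix arrays. The deposited values are log2 probe set summaries made by RMA, per the submitters' processing notes; the version is not given in the sources used here. RMA fixes background, scale and probe weights before deposit, and scanner files were not used here. Array medians lay between 5.36 and 5.44. The number of arrays limits the precision.

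Of 45037 probe sets, 34945 were annotated to 1 gene, 932 to several and 9160 to none. Per gene the single-gene probe set with the highest mean was used, and genes above the array median on at least 3 arrays (12795) were tested. All 10 members passed. Names came from the platform annotation; 34741 of the single-gene probe sets matched a RefSeq table (GRCm38.p6).

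A group means model over all arrays was fitted by lmFit and eBayes (limma 3.58.1, R 4.3.3; two-sided, 20 residual degrees of freedom), with Benjamini-Hochberg adjustment per comparison and calls at 0.05. There were 14 comparisons, and 6 more (averages over genotypes and CPA minus DCB) were added after the first results had been seen; the 3 averaged ones pool labelled durations. The single-genotype CPA minus DCB contrasts were run before the averaged one. Subunit gaps used an exact permutation test in Python 3.11.15. The genes, lists and motifs were chosen with earlier results of these data known. Genes other than the 10 were named from the called members of fixed lists. Deviations of same-numbered arrays had a median r of 0.01 (135 pairs, 42 over 0.1). Those of differently numbered arrays had a median of 0.01 too (270 pairs, 59 over 0.1). Numbers were therefore not treated as pairs, although some structure by number remained. In every corn oil group, replicate 3 had the lowest median deviation of the 10 genes (-0.22 in CARko/PXRko, -0.13 in hCAR/hPXR, -0.25 in PXRko and -0.21 in wild type). Alternatives were no filter, repeated quantile normalization, median centring, the mean of probe sets, trend and robust eBayes, array weights, a replicate block, only the groups compared, leaving out each array and, added later, leaving out 4 arrays with muscle transcripts.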

Additional observations from a re-analysis of the deposited data

How the results depend on the processing

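The number of the 10 genes called was within 1.5 times the stated count in 325 of 360 recomputed counts. These include the 4 corn oil comparisons and the 4 interactions, which called 0 of the 10. They called at most 0.0703% of all genes, so their counts had little room to change. No called value of a single gene changed sign. The 3580 recomputations of single genes covered 200 values, called or not, and most of these values were not called. With array weights, whose iteration stopped before converging and which called up to 26.4% of all genes (18.7% as reported), the counts were 2 for DCB and 3 for CPA in wild type mice, 0 for CPA in CARko/PXRko mice, 4 for the averaged DCB effect, and, for CPA minus DCB, 1 in hCAR/hPXR mice, 0 among CARko/PXRko mice and 1 in wild type mice. With only the groups compared in the fit, they were 4 for CPA in wild type mice, 0 each for DCB in hCAR/hPXR mice and for CPA in CARko/PXRko mice, 4 for the averaged DCB effect, and 1 and 0 for CPA minus DCB in wild type and CARko/PXRko mice. When a gene's probe sets were averaged, there were 4 for CPA in hCAR/hPXR mice, and CPA and CPA minus DCB each gave 0 in CARko/PXRko mice. That contrast also called 0 with no filter, with quantile normalization applied again and without the 4 arrays with muscle transcripts, which left 1 DCB array there and gave 0 for CPA in CARko/PXRko mice as well. Leaving out each array gave 1 to 2 for DCB and 0 to 2 for CPA in hCAR/hPXR mice, 0 to 2 for CPA and 0 to 1 for CPA minus DCB in CARko/PXRko mice, 2 to 3 for the averaged DCB effect and for averaged CPA minus DCB, and 7 to 9 for the averaged CPA effect. The cause of these changes was not tested. The replicate block, which called up to 18.9% of all genes, gave 9 for the averaged CPA effect and 2 for the averaged DCB effect. For CPA it gave 2 in hCAR/hPXR mice, 1 among CARko/PXRko mice and 0 in wild type mice. Replicate numbers were not treated as pairs in the reported fit. In the averaged CPA effect the 7 called genes stayed called under every alternative run, with adjusted p up to 0.0235 (Psmb9), while H2-K1 was called under 10 of 27 and Tap2 under 2 of 27; the Tap1 call in averaged CPA minus DCB held under 5 of 26. The subunit gaps kept their sign and their call in all 114 recomputations, with exact permutation p up to 0.001. Rescaling moved the median of all genes by at most 0.08.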
